A study of Mus musculus with 15 samples.

Results

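The Slc25 family of mitochondrial carriers was described in mouse hearts as the genes of the deposited table that are annotated as protein coding and whose symbol begins with Slc25a and a number, with 1 gene left out. This gave 42 of the 16658 listed genes, and 39 of them passed the filter on low values and were tested. The rule that chose them uses names and gene types and no measured value, but it was set with earlier results of these data known. The study asked how inhibitors of coagulation factors bear on injury after myocardial ischaemia and reperfusion, and it sequenced polyA RNA from heart tissue made up of the infarct and the muscle around it. All mice were male C57BL/6 of 8 to 10 weeks. The sham group had 3 libraries (003, 006 and 007) and the group labelled untreated had 2 (17 and 19). The rivaroxaban group (a factor Xa inhibitor, 3 mg/kg for 7 days before surgery) had 2 libraries (Riva-313 and Riva-319). The dabigatran group (an inhibitor of factor IIa, or thrombin, 10 mg/kg for 7 days before surgery) had 2 libraries (Dabi-202 and Dabi-204). The group given activated protein C (aPC, an anticoagulant protease, 1 mg/kg 30 min before surgery) had 2 libraries (aPC-791 and aPC-792). Surgery was a 90 min ligation of the left anterior descending coronary artery, then 24 h of reperfusion, with drug treatment begun again 2 h after surgery. The labels describe the surgery once for the study and do not repeat it for the untreated group. Another 4 labelled samples, 1 each of the untreated, rivaroxaban, dabigatran and aPC groups, were not analysed here.

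Slc25 carriers are nuclear-encoded proteins, most of which sit in the inner mitochondrial membrane. They exchange the small molecules that the matrix and the cytosol must share, among them ADP for ATP, phosphate, citric acid cycle intermediates, amino acids, cofactors and iron. In heart muscle, where nearly all ATP is made in mitochondria, the ADP/ATP carrier and the phosphate carrier feed ATP synthase, and the aspartate-glutamate and oxoglutarate carriers move reducing equivalents inward as parts of the malate-aspartate shuttle.

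Reads on listed genes ran from 26203566 to 36135006 per library, and the family took 0.719% to 0.985% of them. Marker genes of cell types were summed per library. The summed level of the cardiomyocyte markers (6 of 8 were in the table, none at 0 reads) was 39914 to 40121 CPM (a normalised read count that allows for library size) in the dabigatran libraries. It was 50773 to 69600 CPM in sham, 60075 to 77576 in untreated, 50252 to 54587 in rivaroxaban and 56854 to 61351 in aPC. The summed level of the 8 neutrophil markers was 592 to 1041 CPM in dabigatran, 108 to 165 in untreated, 42.6 to 109 in aPC, 18.3 to 41.9 in rivaroxaban and 31.9 to 50.3 in sham. The summed level of the 8 monocyte and macrophage markers was 220 to 264 CPM in untreated, below all other libraries, and 644 to 758 in dabigatran, above all others. It was 358 to 376 in rivaroxaban, 454 to 614 in sham and 603 to 635 in aPC. The 4 B and T cell markers in the table summed to 3.75 to 5.88 CPM in dabigatran and to at most 2.32 in the other libraries. For fibroblast, endothelial and smooth muscle markers no group lay above or below all other libraries. The noncoding gene Gm42418 took 6.73% and 6.78% of the reads in the aPC libraries and 0.997% to 2.09% in the others. The untreated pair was the most unlike of the pairs: the SD of the difference between its libraries over the tested members was 0.79 log2 units, against 0.42 in dabigatran and 0.18 to 0.28 in the other groups. The labels give a number per library and no origin, so p-values measure the spread between these samples.

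Slc25a4, the heart and muscle ADP/ATP carrier (ANT1), had the highest level of the family in every library. Levels between genes were compared as log2 CPM per kilobase of annotated exon. Slc25a4 had a mean of 11.06 over the 11 libraries (range 10.57 to 11.52), 7.90-fold above the next carrier. That carrier was Slc25a3, which imports phosphate, at 8.08 (7.70 to 8.46). It was followed by Slc25a11, the oxoglutarate-malate carrier, at 7.60 (7.14 to 8.00), and by Slc25a5, the widely expressed ADP/ATP carrier (ANT2), at 7.48 (7.12 to 7.93). The ranges of these 3 carriers over the libraries overlapped. Next came Slc25a34, a carrier with no settled substrate, at 6.17, the glutathione carrier Slc25a39 at 5.48, and the aspartate-glutamate carriers Slc25a13 (citrin) at 5.08 and Slc25a12 (aralar) at 4.99. Slc25a4 alone made up 55% to 60.8% of all family reads and Slc25a3 a further 16.3% to 17.9%. The 3 members that were not tested were at the other end: Slc25a31, the testis ADP/ATP carrier, had 7 to 29 reads per library, Slc25a43 had 8 to 44, and Slc25a21, the oxodicarboxylate carrier, had 0 to 16.

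**Figure D1:**
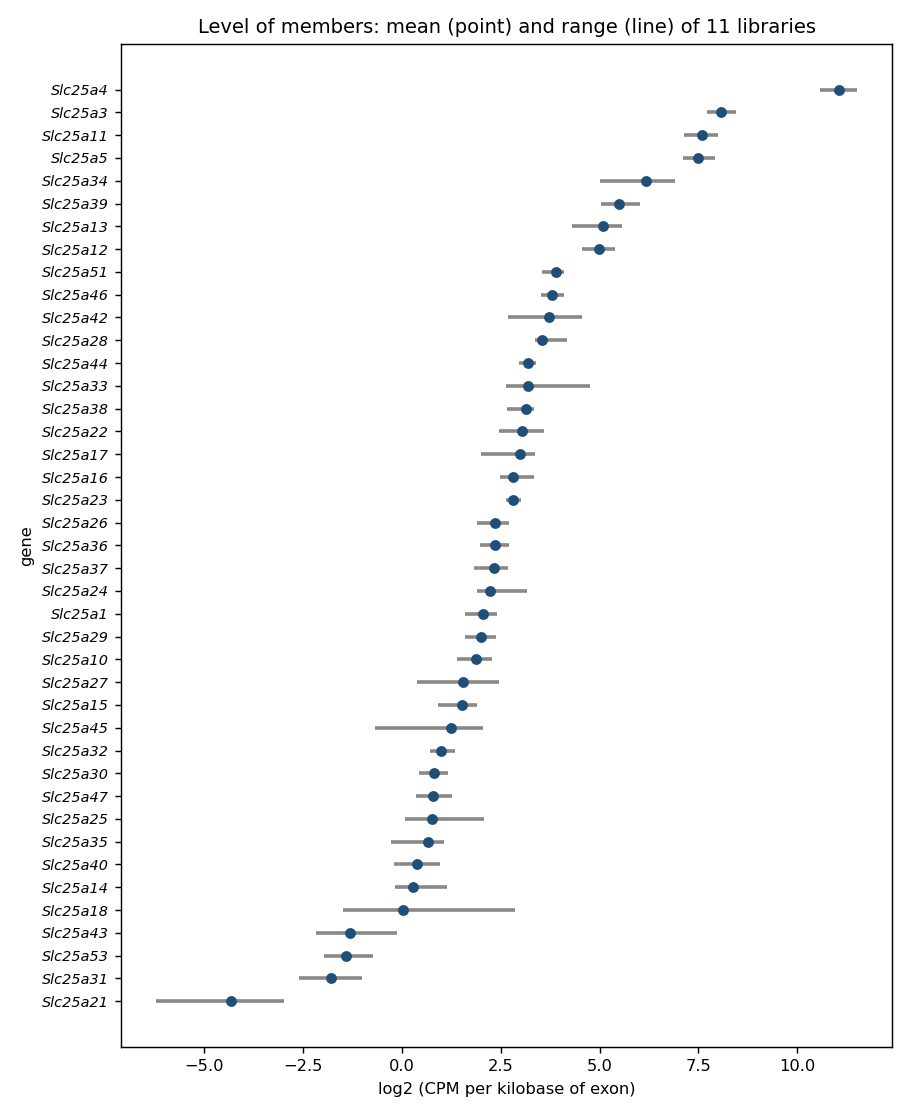
Level of the members shown, on the log2 scale of CPM per kilobase of annotated exon, with the mean (point) and range (line) of the 11 libraries. Slc25a4 stood apart at a mean of 11.06, and Slc25a21 was lowest.

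Promoters were read to show the sequence in front of the members that the results below turn on. RefSeq held 43 promoters for 33 of the 42 members on GRCm38.p6. The 250 bases before the transcription start are printed here 5′ to 3′ on the gene's strand for 6 of them. Slc25a4 lies on chr8 (chr8:46211063-46211312, minus strand) and Slc25a5 on the X chromosome (chrX:36795347-36795596, plus strand). Slc25a24 lies on chr3 (chr3:109122899-109123148, plus strand), Slc25a34 on chr4 (chr4:141623835-141624084, minus strand) and Slc25a42 on chr8 (chr8:70212282-70212531, minus strand). For Slc25a25, which has 3 RefSeq starts, the start with a full cAMP response element is shown (chr2:32424067-32424316, minus strand). Capitals mark a motif match: CCGGAAG (ETS site, first base at -130) in Slc25a4, TGACGTCA (cAMP response element, at -150) in Slc25a25 and the reverse complement of AAGGTCA (estrogen-related receptor site, at -119) in Slc25a34.
Slc25a4: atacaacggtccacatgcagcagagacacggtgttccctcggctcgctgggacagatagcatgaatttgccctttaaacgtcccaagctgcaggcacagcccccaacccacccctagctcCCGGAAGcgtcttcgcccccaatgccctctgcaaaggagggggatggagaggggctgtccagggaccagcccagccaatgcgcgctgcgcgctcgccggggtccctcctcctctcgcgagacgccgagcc
Slc25a5: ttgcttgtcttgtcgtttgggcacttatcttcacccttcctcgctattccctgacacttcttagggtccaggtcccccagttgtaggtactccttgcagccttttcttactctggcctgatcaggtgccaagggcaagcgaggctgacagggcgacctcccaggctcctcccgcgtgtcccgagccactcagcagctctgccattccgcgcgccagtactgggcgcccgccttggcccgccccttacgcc
Slc25a24: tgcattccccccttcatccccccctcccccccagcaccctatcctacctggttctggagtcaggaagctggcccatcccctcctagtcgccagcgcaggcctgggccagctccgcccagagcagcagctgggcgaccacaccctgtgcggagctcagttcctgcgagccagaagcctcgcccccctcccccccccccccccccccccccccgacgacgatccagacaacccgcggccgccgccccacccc
Slc25a25: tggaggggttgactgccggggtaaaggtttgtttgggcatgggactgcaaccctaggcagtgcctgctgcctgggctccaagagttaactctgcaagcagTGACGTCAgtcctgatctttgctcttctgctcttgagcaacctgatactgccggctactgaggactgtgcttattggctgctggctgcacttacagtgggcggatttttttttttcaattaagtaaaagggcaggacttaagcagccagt
Slc25a34: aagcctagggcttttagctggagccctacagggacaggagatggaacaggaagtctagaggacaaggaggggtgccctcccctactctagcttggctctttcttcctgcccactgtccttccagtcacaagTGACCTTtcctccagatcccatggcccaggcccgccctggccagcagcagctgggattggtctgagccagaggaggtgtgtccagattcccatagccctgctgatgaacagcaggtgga
Slc25a42: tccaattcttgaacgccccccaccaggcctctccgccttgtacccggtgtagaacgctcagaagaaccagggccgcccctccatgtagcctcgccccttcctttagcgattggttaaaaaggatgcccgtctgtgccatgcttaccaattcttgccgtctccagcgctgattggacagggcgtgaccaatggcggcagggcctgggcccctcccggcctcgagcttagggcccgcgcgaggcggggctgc

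The motifs were searched on both strands in windows of 300 bases, from 250 before to 50 after each start, and set beside all 32851 promoters of the RefSeq table. TGACGTCA was present at Slc25a25 and Slc25a36 and in 1.79% of all promoters. AAGGTCA was present at Slc25a34 alone among the members (2.33% of member promoters) and in 4.72% of all promoters. CCGGAAG was found at Slc25a3, Slc25a4, Slc25a17, Slc25a25 and Slc25a38, in 11.6% of member promoters against 8.86% of all. The E-box CACGTG was in 8 of the 43 member promoters (18.6%) against 7.15% of all. These belong to 7 members (Slc25a1, Slc25a13, Slc25a14, Slc25a15, Slc25a31, Slc25a33 and Slc25a36), since overlapping windows of Slc25a14 hold the same site. The median GC content was 59.7% in member promoters and 52.7% in all. The NRF1 site was in 4.65% of member promoters (Slc25a3 and Slc25a31) and 4.60% of all, the AP-1 site TGANTCA in 4.65% (Slc25a11 and Slc25a13) and 7.81%, and the PPAR direct repeat in none and 0.0396%. TGACGTCA contains the half-site TGACG, which was in 27.9% of member promoters and 20.8% of all. None of the searched full sites was in the windows of Slc25a5, Slc25a24 or Slc25a42. These are letter matches and were not tied to binding data.

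Over all 5 groups, 12 of the 39 tested members differed (limma moderated F test, adjusted p under 0.05), or 30.8%, against 30.2% of the 13541 tested genes. They were Slc25a3, Slc25a5, Slc25a11, Slc25a12, Slc25a13, Slc25a24, Slc25a25, Slc25a26, Slc25a34, Slc25a37, Slc25a39 and Slc25a42. A further 9 were called in at least 1 comparison of 2 groups, the added contrast of aPC with dabigatran included. The other 18 were called in no test. Both dabigatran libraries lay below all 9 others for 11 of the 39 tested members, which was the case for 7.89% of all tested genes: Slc25a3, Slc25a4, Slc25a10, Slc25a11, Slc25a12, Slc25a13, Slc25a26, Slc25a29, Slc25a34, Slc25a42 and Slc25a51. Both aPC libraries lay above all 9 others for 8 members, against 8.28% of all genes: Slc25a3, Slc25a4, Slc25a10, Slc25a11, Slc25a12, Slc25a39, Slc25a46 and Slc25a51. These were the highest counts of this kind. Dabigatran lay above all others for 3 members (13.2% of all genes) and aPC below for 2 (8.29%). Rivaroxaban lay above for 3 (5.11%) and below for 1 (4.19%), and untreated above for 1 (5.99%) and below for 2 (6.52%). Sham lay above for 0 (0.724%) and below for 0 (0.650%). In the dabigatran group the summed cardiomyocyte markers were lowest, and in the aPC group Gm42418 was highest. The summed neutrophil, monocyte and macrophage, and B and T cell markers were highest in dabigatran. Single markers varied: of the 8 neutrophil markers, 7 were higher and 1 lower in dabigatran than in untreated. Of the 8 monocyte and macrophage markers, 6 were lower and 2 higher in aPC than in dabigatran. The part of the markers and of Gm42418 in these counts was not tested. In whole tissue fewer cells of a type and less RNA per cell cannot be told apart.

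**Figure D2:**
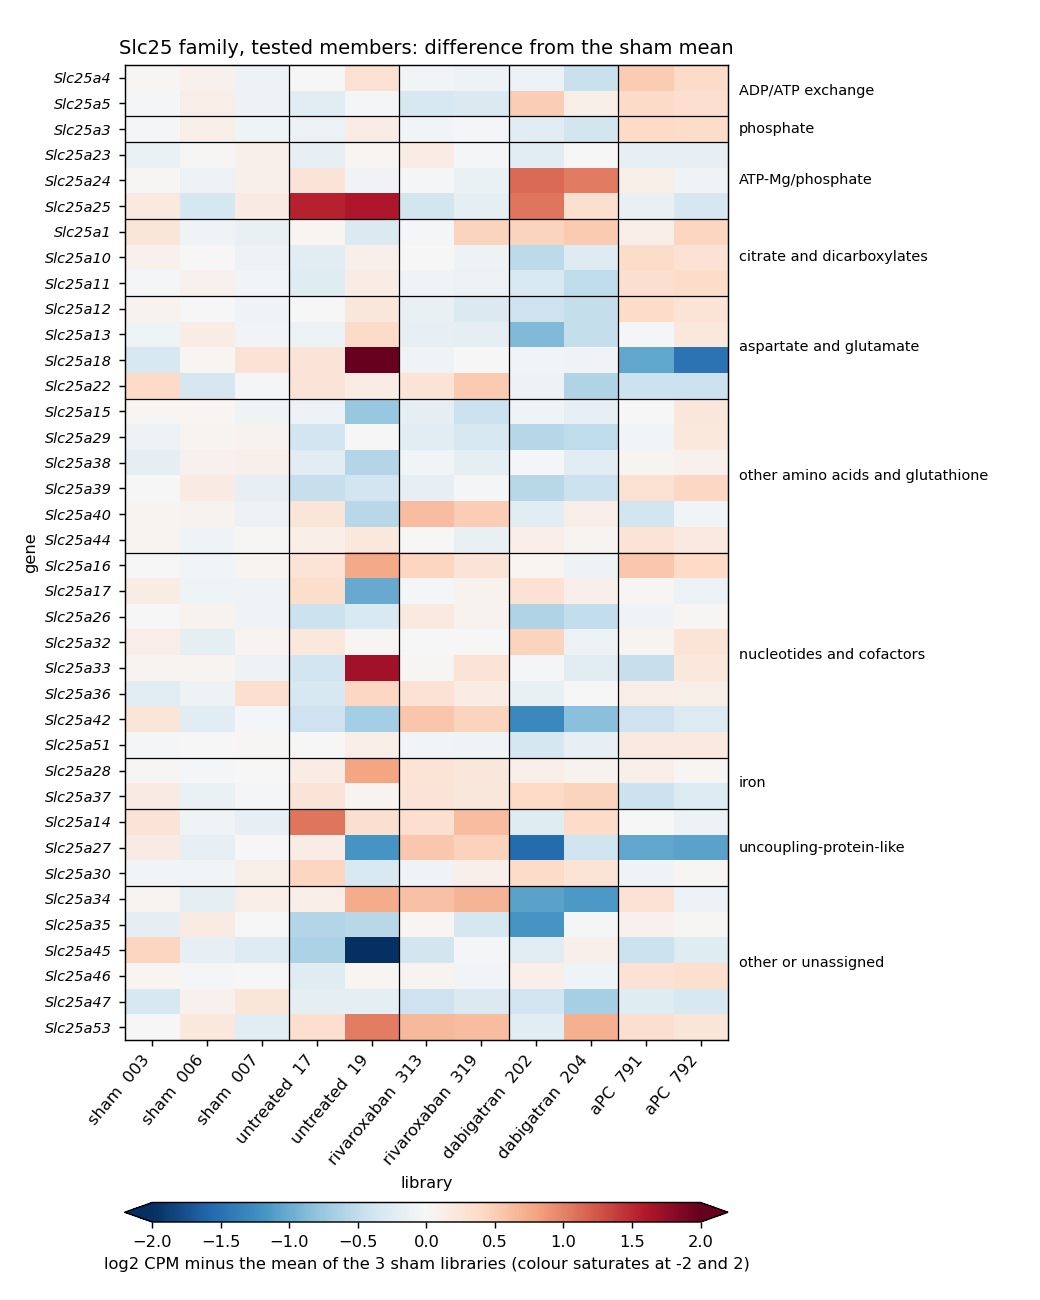
Difference of the tested members shown from the mean of the 3 sham libraries, in log2 CPM, by library and role of the carrier (colour saturates at -2 and 2). Slc25a25 was high in both untreated libraries, Slc25a24 high and Slc25a34 and Slc25a42 low in both dabigatran libraries, and untreated library 19 stood out for Slc25a18, Slc25a33 and Slc25a45.

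The balance of the ADP/ATP carriers was lower in the dabigatran hearts. These proteins import ADP and export ATP, and the muscle form Slc25a4 and the growth-associated form Slc25a5 share that task. Log2 CPM of Slc25a4 was 12.14 and 11.80 in dabigatran, 12.27, 12.35 and 12.15 in sham, 12.24 and 12.56 in untreated, 12.19 and 12.15 in rivaroxaban, and 12.75 and 12.63 in aPC. Log2 CPM of Slc25a5 was 8.65 and 8.27 in dabigatran, 8.13, 8.29 and 8.06 in sham, 7.94 and 8.13 in untreated, 7.83 and 7.87 in rivaroxaban, and 8.54 and 8.49 in aPC. Slc25a4 was thus lowest in dabigatran and highest in aPC, while Slc25a5 was highest in these same 2 groups, with 1 sham library (006) inside the dabigatran range. The difference within a library, Slc25a4 minus Slc25a5, cancels the library's scaling but not its mix of cells. It was 3.49 and 3.53 in dabigatran and lay between 4.05 and 4.42 in the 9 other libraries, so that no library of another group reached the dabigatran values. Group means were 3.51 ± 0.03 in dabigatran, 4.10 ± 0.05 in sham, 4.36 ± 0.08 in untreated, 4.32 ± 0.06 in rivaroxaban and 4.18 ± 0.05 in aPC (SD; n = 3 for sham, 2 for the others). The groups differed by an exact permutation test of F over all 17325 assignments of the libraries (two-sided, p = 0.000981, adjusted p = 0.00491 over 5 pairs of paralogs), and p was at most 0.00529 with any 1 library left out. Slc25a5 rose in dabigatran against rivaroxaban by 0.61 ± 0.15 (SE; 1.53-fold, limma, adjusted p = 0.0162), a call lost without Dabi-202 or either rivaroxaban library. Slc25a4 did not pass the test in any comparison with sham or untreated. In the same dabigatran libraries the summed cardiomyocyte markers were lowest (39914 to 40121 CPM) and the summed neutrophil markers highest (592 to 1041 CPM). The part of these markers in the balance was not tested.

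**Figure D3:**
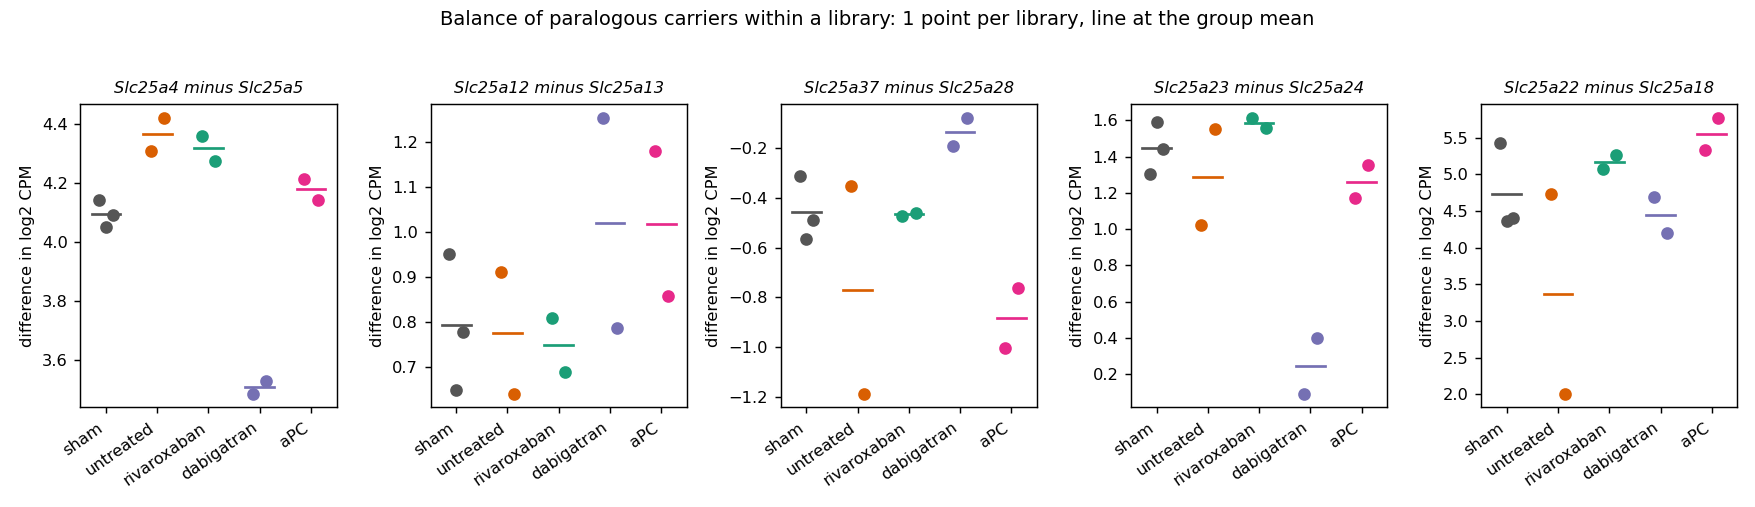
Difference in log2 CPM between paralogous carriers within each library, with 1 point per library and a line at the group mean. In Slc25a4 minus Slc25a5 the dabigatran points at 3.49 and 3.53 lie below all others, and in Slc25a23 minus Slc25a24 at 0.09 and 0.40 they do so too.

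Slc25a3, which brings in the phosphate that ATP synthase joins to ADP, was likewise lowest in dabigatran and highest in aPC. Its log2 CPM was 10.33 and 10.18 in dabigatran, 10.93 and 10.90 in aPC, and 10.42 to 10.69 in the 7 remaining libraries. The 3 sets did not overlap. Slc25a3 was called by the F test (limma, adjusted p = 0.0430), but not with quantile normalization or with any 1 of 9 libraries left out, and in no comparison of a drug with sham or untreated.

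Among the calcium-activated ATP-Mg/phosphate carriers, which set the adenine nucleotide content of the matrix, Slc25a25 was raised in the untreated hearts and Slc25a24 in the dabigatran hearts. Slc25a25 stood at 4.96 and 5.04 log2 CPM in untreated, 3.61, 3.06 and 3.59 in sham, 3.05 and 3.24 in rivaroxaban, 3.27 and 3.09 in aPC, and 4.49 and 3.74 in dabigatran. Both untreated libraries lay above the 9 others, and dabigatran came between. The summed monocyte and macrophage markers were lowest in the same untreated libraries. Of the 8 single markers, 6 were lower and 2 higher in untreated than in sham. The part of these markers in the level of Slc25a25 was not tested. Slc25a25 rose in untreated against sham by 1.58 ± 0.24 (SE; 2.99-fold, limma, adjusted p = 0.00649). It was lower in rivaroxaban than in untreated by -1.86 ± 0.27 (3.62-fold, adjusted p = 0.00567) and lower in aPC than in untreated by -1.82 ± 0.27 (3.54-fold, adjusted p = 0.00364). These 3 comparisons share the 2 untreated libraries. The rise over sham and the fall in aPC were called with any 1 library left out, and the fall in rivaroxaban was lost without Riva-313 (largest adjusted p over its settings 0.0749). Both falls were lost with the compared groups alone in the fit, and the fall in rivaroxaban also with weights per library, where the rise over sham had an adjusted p of 0.130. Slc25a25 was also higher in dabigatran than in rivaroxaban by 0.97 ± 0.27 (1.96-fold, limma, adjusted p = 0.0264), which was lost without Dabi-202 or either rivaroxaban library. The exons of Slc25a25 overlap those of Naif1 on the opposite strand by 379 bases.

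Slc25a24 stood at 4.94 and 4.84 log2 CPM in dabigatran. It was 3.82, 3.68 and 3.91 in sham, 4.07 and 3.73 in untreated, 3.79 and 3.68 in rivaroxaban, and 3.92 and 3.74 in aPC. The dabigatran libraries were above every other library, and the other groups overlapped. Slc25a24 rose in dabigatran by 1.09 ± 0.16 against sham (SE; 2.12-fold, limma, adjusted p = 0.00242), by 0.99 ± 0.18 against untreated (1.99-fold, adjusted p = 0.00635) and by 1.16 ± 0.18 against rivaroxaban (2.23-fold, adjusted p = 0.00188). All 3 calls were kept with any 1 library left out, and they share the 2 dabigatran libraries. The call against untreated was lost with weights per library or with the groups compared alone in the fit (largest adjusted p 0.162). The third carrier of this kind, Slc25a23, was flat, between 5.03 and 5.41 in all 11 libraries, and was called in no test. Slc25a23 minus Slc25a24 was 0.09 and 0.40 in dabigatran against 1.02 to 1.62 in the others, but the exact permutation test did not pass after adjustment (p = 0.0289, adjusted p = 0.0723).

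**Figure D4:**
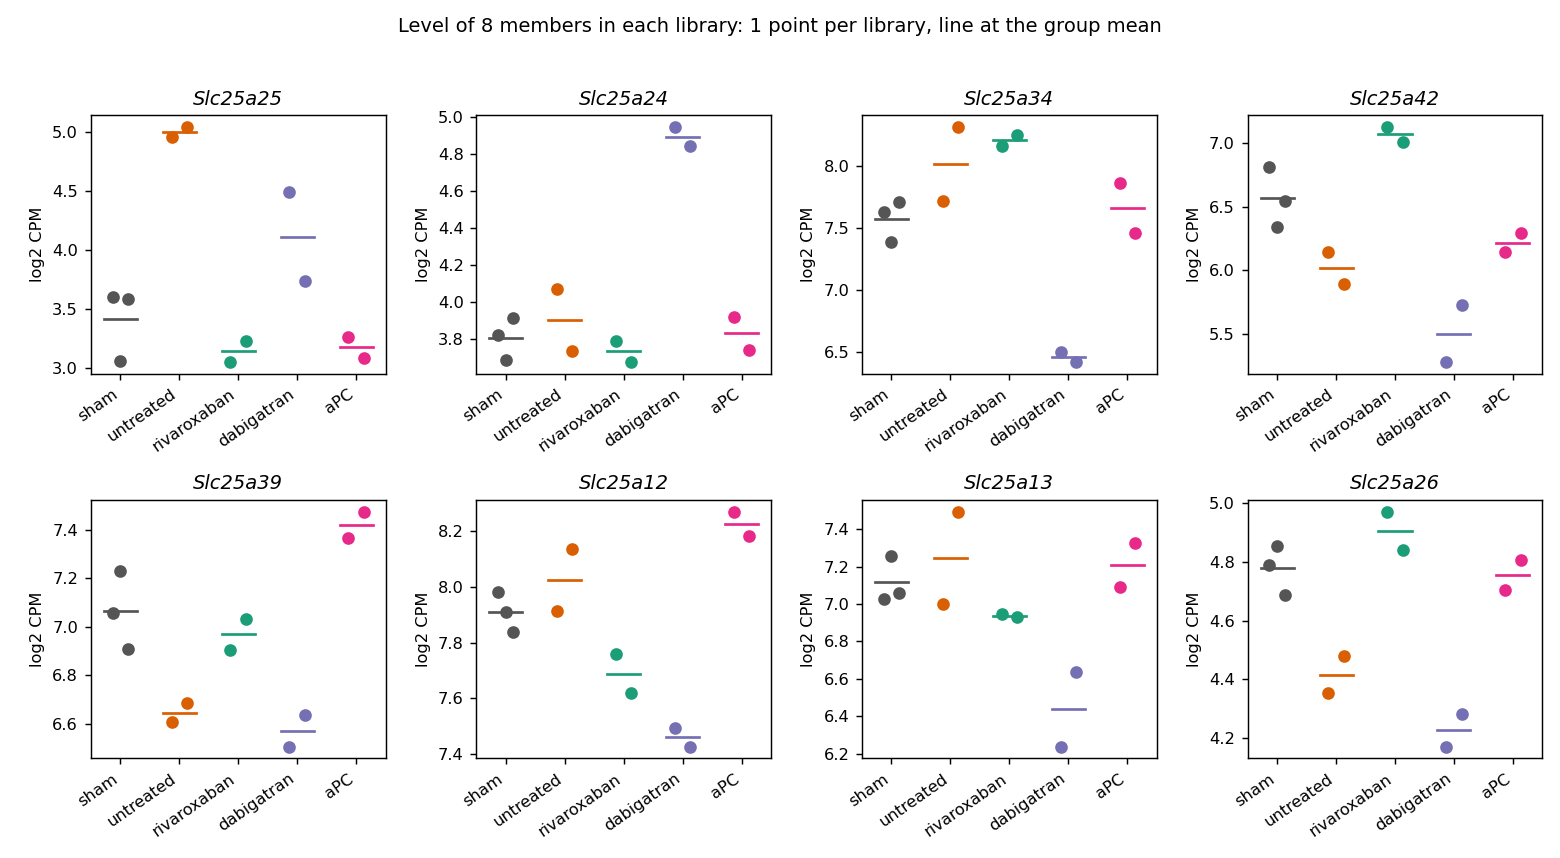
Log2 CPM of 8 members, with 1 point per library and a line at the group mean. Both untreated points are highest for Slc25a25, both dabigatran points are highest for Slc25a24 and lowest for Slc25a34, Slc25a42, Slc25a12, Slc25a13 and Slc25a26, and both aPC points are highest for Slc25a39 and Slc25a12.

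Carriers of the malate-aspartate shuttle were lowest in the dabigatran hearts. Slc25a12, the main aspartate-glutamate carrier of muscle, stood at 7.49 and 7.43 log2 CPM in dabigatran, 7.98, 7.91 and 7.84 in sham, 7.91 and 8.13 in untreated, 7.76 and 7.62 in rivaroxaban, and 8.27 and 8.18 in aPC. Slc25a13, its paralog, was 6.24 and 6.64 in dabigatran, 7.03, 7.26 and 7.06 in sham, 7.00 and 7.49 in untreated, 6.95 and 6.93 in rivaroxaban, and 7.09 and 7.32 in aPC. For both genes the dabigatran libraries lay below all others. Slc25a12 fell in dabigatran by 0.45 ± 0.11 against sham (SE; 1.37-fold, limma, adjusted p = 0.0219) and by 0.56 ± 0.12 against untreated (1.48-fold, adjusted p = 0.0157). Slc25a13 fell by 0.68 ± 0.17 against sham (1.60-fold, limma, adjusted p = 0.0237) and by 0.81 ± 0.19 against untreated (1.75-fold, adjusted p = 0.0215). All 4 calls were lost without Dabi-202, and both calls of Slc25a12 without Dabi-204. Against sham, both genes also lost the call without sham 003 or sham 006, and Slc25a13 without sham 007. Against untreated, both lost it without untreated 19, with weights per library or with the 2 groups alone in the fit. Slc25a12 minus Slc25a13 did not separate the groups (exact permutation test, p = 0.483), at 0.64 to 1.25 over the libraries. The oxoglutarate-malate carrier Slc25a11 was also lowest in dabigatran, at 8.42 and 8.22 in dabigatran, 8.48 to 8.87 in sham, untreated and rivaroxaban, and 9.05 and 9.09 in aPC. It was called by the F test (limma, adjusted p = 0.0300, lost without 9 of the 11 libraries in turn) and in no comparison with sham or untreated, and 189 bases of its exons overlap Rnf167 on the opposite strand.

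The other carriers of glutamate and dicarboxylates gave few calls. Slc25a22, a glutamate-proton symporter, was 5.55 and 5.04 log2 CPM in dabigatran and 5.92 and 6.17 in rivaroxaban. The difference of -0.75 ± 0.23 (SE; limma, adjusted p = 0.0405) was lost without any 1 of 7 libraries, and with weights per library. Its paralog Slc25a18 was 1.17 in untreated 17 and 3.79 in untreated 19, 0.60 to 1.20 in sham, rivaroxaban and dabigatran, and -0.12 and -0.56 in aPC. The call of Slc25a18 in aPC against untreated (-2.81 ± 0.65, limma, adjusted p = 0.0184) has a size that depends on untreated 19, the only library above 1.20. Without it the fall was 1.51 (log2), and without untreated 17 it was 4.12, and both times it was called. The call was lost without either aPC library, with weights per library, in the voom fit and with the 2 groups alone in the fit. Slc25a22 minus Slc25a18 did not separate the groups (exact permutation test, p = 0.236). Slc25a10, the dicarboxylate carrier, was 3.17 and 3.43 in dabigatran, 3.46 to 3.79 in sham, untreated and rivaroxaban, and 4.06 and 3.99 in aPC. Slc25a1, which exports citrate, lay between 2.71 and 3.53. Neither of these passed the test in a comparison with sham or untreated.

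Of the 6 tested carriers of other amino acids and glutathione, Slc25a39 was the one called against sham or untreated. Slc25a39, which takes glutathione into the matrix, stood at 7.37 and 7.48 log2 CPM in aPC, 7.06, 7.23 and 6.91 in sham, 6.91 and 7.03 in rivaroxaban, 6.61 and 6.69 in untreated, and 6.51 and 6.64 in dabigatran. The aPC libraries were above all others, and untreated and dabigatran overlapped at the bottom. It fell in dabigatran against sham by 0.50 ± 0.12 (SE; 1.41-fold, limma, adjusted p = 0.0214), a call lost without Dabi-202, sham 003 or sham 006. It was higher in aPC than in untreated by 0.78 ± 0.13 (1.71-fold, adjusted p = 0.00662), lost without aPC-792, with weights per library or with the 2 groups alone in the fit. Its paralog Slc25a40 ranged from 2.87 to 4.03 with both rivaroxaban libraries highest (4.03 and 3.91) and was not called. The ornithine carrier Slc25a15, the basic amino acid carrier Slc25a29, the glycine carrier Slc25a38 and the branched-chain amino acid carrier Slc25a44 were called in no comparison with sham or untreated, and their differences from sham ran from -0.54 to 0.23.

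Among the 9 tested carriers of nucleotides and cofactors, Slc25a42 moved most. It carries coenzyme A, the acyl carrier of fatty acid oxidation, into the matrix. Its log2 CPM was 5.28 and 5.73 in dabigatran, 6.14 and 5.89 in untreated, 6.15 and 6.29 in aPC, 6.81, 6.34 and 6.54 in sham, and 7.13 and 7.01 in rivaroxaban. The dabigatran and rivaroxaban libraries held opposite ends, and neither group overlapped any other. Slc25a42 fell in dabigatran by 1.06 ± 0.17 against sham (SE; 2.09-fold, limma, adjusted p = 0.00375) and by 1.57 ± 0.19 against rivaroxaban (2.97-fold, adjusted p = 0.000687). It was higher in rivaroxaban than in untreated by 1.05 ± 0.19 (2.08-fold, adjusted p = 0.0134). The fall against rivaroxaban was called with any 1 library left out. The fall against sham was lost without Dabi-202 (adjusted p = 0.0581), and the rise over untreated without either rivaroxaban library, with weights per library or with the 2 groups alone in the fit.

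Slc25a26, which imports S-adenosylmethionine for methylation in the matrix, was 4.17 and 4.28 log2 CPM in dabigatran, 4.35 and 4.48 in untreated, 4.79, 4.85 and 4.69 in sham, 4.97 and 4.84 in rivaroxaban, and 4.70 and 4.81 in aPC. Dabigatran was lowest, with untreated next. It fell in dabigatran by 0.55 ± 0.13 against sham (SE; 1.46-fold, limma, adjusted p = 0.0189) and by 0.68 ± 0.14 against rivaroxaban (1.60-fold, adjusted p = 0.00873). Both calls were lost without Dabi-202. The call against sham was also lost without sham 003 or sham 006, and the call against rivaroxaban without Riva-313. The exons of Slc25a26 overlap Lrig1 on the opposite strand by 144 bases. The NAD carrier Slc25a51, the coenzyme A-linked Slc25a16, the peroxisomal Slc25a17, the folate or FAD carrier Slc25a32 and the pyrimidine nucleotide carriers Slc25a33 and Slc25a36 were called in no comparison with sham, untreated or rivaroxaban.

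The mitoferrins, which import iron for haem and iron-sulphur clusters, are Slc25a37 and Slc25a28. Slc25a37 was 4.41 and 4.55 log2 CPM in aPC, 5.0, 4.69 and 4.80 in sham, 5.09 and 4.89 in untreated, 5.10 and 5.06 in rivaroxaban, and 5.22 and 5.27 in dabigatran. The aPC libraries lay below and the dabigatran libraries above all others. The fall in aPC against untreated (-0.51 ± 0.15, SE, limma, adjusted p = 0.0453) was lost without 10 of the 11 libraries in turn. It was kept under 1 of the 7 other settings. Slc25a28 was 6.07 in untreated 19 and 5.26 to 5.57 elsewhere, and was not called. Slc25a37 minus Slc25a28 did not pass over all libraries (exact permutation test, p = 0.147, adjusted p = 0.245). Its p was 0.00317 without untreated 17 and 0.00786 without untreated 19.

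The carriers related to uncoupling proteins showed wide spread. Slc25a27 was 4.44 and 4.35 log2 CPM in rivaroxaban, 2.35 and 3.49 in dabigatran, 4.03 and 2.71 in untreated, 2.86 and 2.81 in aPC, and 4.05, 3.73 and 3.89 in sham. Rivaroxaban was above all others, and the other drug groups lay below sham. Slc25a27 was lower in dabigatran than in rivaroxaban by -1.48 ± 0.42 (SE; 2.78-fold, limma, adjusted p = 0.0300), a call lost without Dabi-202 or either rivaroxaban library. Slc25a14 and Slc25a30 were called in no test.

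Slc25a34 gave the lowest p of the family. It has no settled substrate and was the carrier with the fifth highest level per kilobase. Its log2 CPM was 6.50 and 6.42 in dabigatran, 7.63, 7.39 and 7.71 in sham, 7.87 and 7.46 in aPC, 7.71 and 8.31 in untreated, and 8.16 and 8.25 in rivaroxaban. The dabigatran libraries lay below all others, and rivaroxaban lay above sham and aPC. Slc25a34 fell in dabigatran by 1.11 ± 0.19 against sham (SE; 2.16-fold, limma, adjusted p = 0.00421), by 1.55 ± 0.20 against untreated (2.93-fold, adjusted p = 0.00159) and by 1.75 ± 0.20 against rivaroxaban (3.35-fold, adjusted p = 0.00061). All 3 calls were kept under every setting tried, including any 1 library left out, with a largest adjusted p of 0.0471. Its promoter, shown above, was the member promoter with the letters AAGGTCA, which were in 2.33% of member promoters and 4.72% of all. Whether a receptor binds there was not tested.

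Of the remaining members without a settled role, Slc25a45 was called. It was 2.45 and 0.79 log2 CPM in untreated and 2.65 to 3.51 in the other groups, and fell in untreated against sham by 1.46 ± 0.41 (SE; 2.75-fold, limma, adjusted p = 0.0491). That call was lost without 10 of the 11 libraries in turn, and was kept under 3 of the 7 other settings. Slc25a35, Slc25a46 (an outer membrane protein), Slc25a47 and Slc25a53 were called in no test.

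By comparison, the family's share of calls lay near or below the share of all genes in most cases. In untreated against sham, 3 members were called (1 higher, 2 lower; 7.69%), against 10.6% of all tested genes, with 5.07% higher and 5.52% lower. In dabigatran against sham, 7 members were called (1 higher, 6 lower; 17.9%), against 18.5% of all genes, with 11.7% higher and 6.82% lower. The median difference of the 39 members was -0.12, and that of all genes 0.01. In dabigatran against untreated, 4 members were called (1 higher, 3 lower; 10.3%), against 13.8% of all genes (8.71% higher, 5.08% lower), with medians of -0.30 and 0.05. In dabigatran against rivaroxaban, 8 members were called (3 higher, 5 lower; 20.5%), against 23.3% (14% higher, 9.39% lower), with medians of -0.23 and 0.00. The 3 dabigatran comparisons share the dabigatran libraries. The 2 other scalings moved the medians of all genes below 0 in these comparisons, so a family median below 0 under them shows little. With median centring the family medians were -0.21, -0.41 and -0.33, against -0.08, -0.05 and -0.09 for all genes. With quantile normalization they were -0.19, -0.26 and -0.28, against -0.06, -0.03 and -0.06. The cardiomyocyte markers had medians of -0.35, -0.49 and -0.31 in the main fit. The 7 calls against sham fell to 2 without Dabi-202 (Slc25a24 and Slc25a34) and to 3 without sham 003 or sham 006.

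In rivaroxaban against sham no member and no gene was called with limma (0% of tested genes), while 4 members and 761 genes had an unadjusted p under 0.05. The voom fit on recovered reads also called 0 members, and the fit with weights per library called 1. Slc25a34 had the lowest p, with a difference of 0.63 ± 0.19 (SE; limma, adjusted p = 0.675), and Slc25a42 followed at 0.50 ± 0.17 (adjusted p = 0.759). In rivaroxaban against untreated, 2 members were called (Slc25a42 higher and Slc25a25 lower; 5.13%), against 8.47% of all genes, with 4.02% higher and 4.45% lower.

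In aPC against sham no member was called with limma, against 1.17% of all genes (0.126% higher, 1.05% lower). With an unadjusted p under 0.05 there were 10 of the 39 members and 2307 of the 13541 tested genes. The other tools called 0 members (voom) and 9 (weights per library), and their shares of all genes are not given here. Slc25a3, Slc25a4, Slc25a5, Slc25a11, Slc25a12, Slc25a16, Slc25a39 and Slc25a46 were among the 10, with differences from 0.31 to 0.47, and Slc25a27 and Slc25a37 stood at -1.06 and -0.35. In aPC against untreated, 6 members were called (3 higher, 3 lower; 15.4%), against 17.6% of all genes, with 7.44% higher and 10.2% lower. Slc25a5 and Slc25a39 were among the higher, and Slc25a18, Slc25a25 and Slc25a37 were the lower. Slc25a5 was higher by 0.48 ± 0.15 (SE; limma, adjusted p = 0.0495), and this call was lost without 9 of the 11 libraries in turn. It was kept under 2 of the 7 other settings. Without untreated 17 the comparison called 11 members, and without aPC-792 it called 1.

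The contrast of aPC with dabigatran was added after the values had been seen, since these groups held the ends of the family's range. It called 15 of the 39 members (12 higher in aPC, 3 lower; 38.5%), against 21.5% of all genes, with 9.21% higher and 12.3% lower. As the contrast was picked on the family's own values, an excess of its calls over those of all genes is built in, and nothing is read from these shares. The p-values of its members, also with a library left out, come after the same choice and run small. The median difference was 0.20 for the members and -0.05 for all genes. Higher in aPC were Slc25a39 by 0.85 ± 0.13 (SE; limma, adjusted p = 0.00302), Slc25a12 by 0.77 ± 0.12 (adjusted p = 0.00314), Slc25a34 by 1.20 ± 0.20 (adjusted p = 0.00393), Slc25a11 by 0.75 ± 0.15 (adjusted p = 0.00706), Slc25a3 by 0.67 ± 0.14 (adjusted p = 0.0103) and Slc25a13 by 0.77 ± 0.19 (adjusted p = 0.0180). Slc25a4, Slc25a10, Slc25a26, Slc25a29, Slc25a42 and Slc25a51 were also higher, by 0.46 to 0.72. Lower in aPC were Slc25a24 by -1.06 ± 0.18 (limma, adjusted p = 0.00370), Slc25a37 by -0.77 ± 0.15 (adjusted p = 0.00735) and Slc25a25 by -0.94 ± 0.27 (adjusted p = 0.0317). The calls of Slc25a12, Slc25a24, Slc25a34 and Slc25a39 were kept with any 1 library left out. The count was 6 without aPC-791, 5 without aPC-792 and 8 without Dabi-202. Scaling moved the median of all genes in this contrast by 0.13 (median centring) and 0.10 (quantile normalization), with 14 to 16 members called. The call of Slc25a25 was lost under both, with the 2 groups alone in the fit, in the voom fit and without either aPC library or Dabi-202. The call of Slc25a4 was lost with quantile normalization, with the 2 groups alone in the fit and without either aPC library or Dabi-204.

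**Figure D5:**
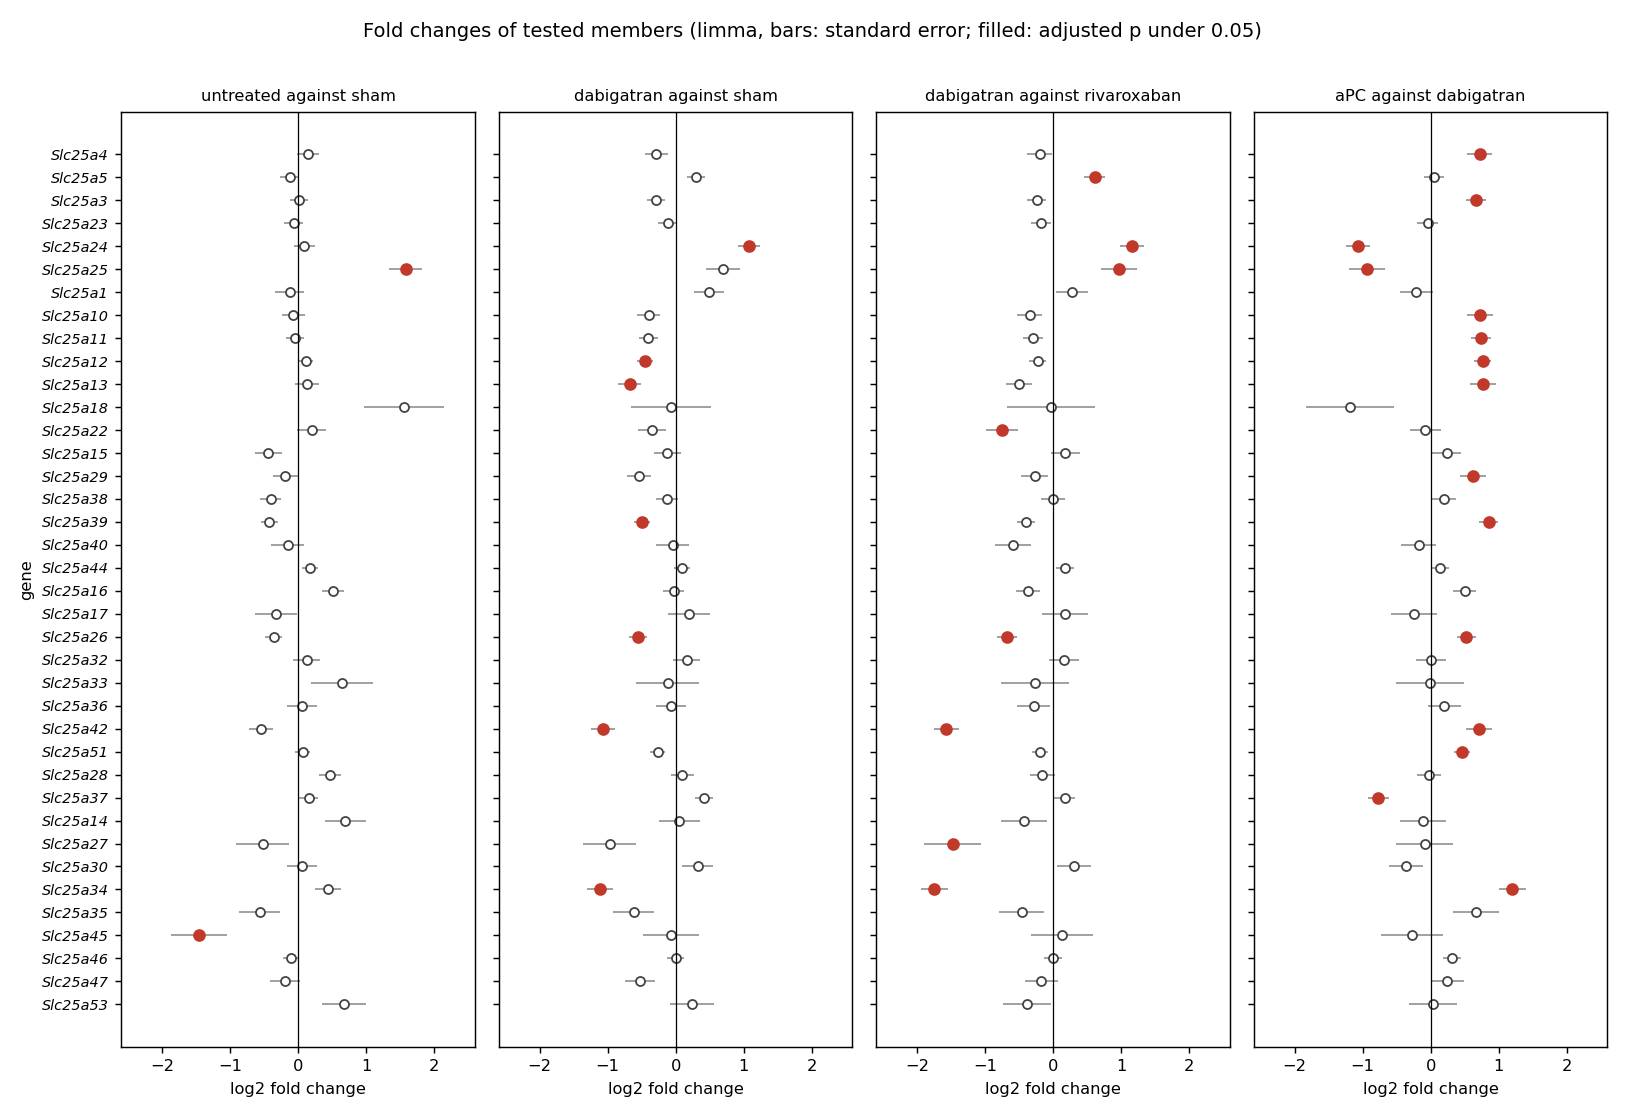
Log2 fold change of the tested members shown in 4 comparisons with the standard error, where filled points passed an adjusted p of 0.05 in limma. Slc25a25 was highest in untreated against sham (1.58), Slc25a24 was the sole filled point to the right in dabigatran against sham (1.09), and most filled points in aPC against dabigatran lie to the right (12 of 15).

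Other genes of mitochondrial transport are given by lists of 4 to 12 tested genes, and their counts are read against the shares of all genes called: 10.6% in untreated against sham, 18.5% in dabigatran against sham, 13.8% in dabigatran against untreated, 23.3% in dabigatran against rivaroxaban and 17.6% in aPC against untreated. Of the 4 tested family members named otherwise (Ucp2, Ucp3, Mtch1 and Mtch2), Ucp2, a proton-leak carrier of many tissues, rose in untreated against sham by 0.84 ± 0.20 (SE; limma, adjusted p = 0.0308). Ucp3, its muscle relative, was 4.35 and 3.56 log2 CPM in dabigatran, 7.29 and 7.02 in untreated, 6.07 and 7.00 in rivaroxaban, 4.87 and 4.42 in aPC, and 6.95, 4.57 and 5.24 in sham. The sham libraries spanned most of that range. Ucp3 was lower than in untreated by -3.20 ± 0.62 in dabigatran (limma, adjusted p = 0.00945) and by -2.51 ± 0.62 in aPC (adjusted p = 0.0238). Of the 12 tested parts of the carrier import machinery, Tomm70a, the outer membrane receptor for carrier precursors, rose in dabigatran against sham by 0.60 ± 0.16 (limma, adjusted p = 0.0297), and the 11 others were not called there. In aPC against untreated, Tomm22 and Timm8b rose, 2 of 12 (16.7%), near the 17.6% of all genes.

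Of the 12 regulators of mitochondrial biogenesis, 3 fell and 1 rose in dabigatran against sham (33.3% called, against 18.5% of all genes). Their median difference was -0.63, against 0.01 for all genes. Esrra, an estrogen-related receptor that drives genes of oxidative metabolism, fell by 0.58 ± 0.10 (SE; limma, adjusted p = 0.00571), Esrrb by 0.76 ± 0.20 (adjusted p = 0.0281) and Perm1, a muscle cofactor of these receptors, by 0.87 ± 0.27 (adjusted p = 0.0478). Pprc1, a growth-regulated coactivator, rose by 0.98 ± 0.28 (limma, adjusted p = 0.0354). Esrra and Perm1 were the 2 called in untreated against sham, lower by -0.53 ± 0.10 and -0.98 ± 0.27. In dabigatran against rivaroxaban 4 fell (Esrra, Esrrb, Esrrg and Ppargc1a) and Pprc1 rose. Against untreated hearts, dabigatran gave 0 calls among the 12, against 13.8% of all genes, with a median difference of -0.19.

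Of the 9 tested genes of the pyruvate carrier, the sideroflexins and the ABC exporters, Sfxn1, a serine transporter, rose in dabigatran against sham by 0.78 ± 0.14 (SE; limma, adjusted p = 0.00569) and its relative Sfxn5 by 0.99 ± 0.17 (adjusted p = 0.00533). Abcb8 fell by 0.51 ± 0.11 (limma, adjusted p = 0.0141), which made 3 of 9 (33.3%), against 18.5% of all genes. Against untreated hearts, 0 of these 9 genes were called in dabigatran, against 13.8% of all genes. Among 6 outer membrane channels and receptors, Acsl1, which activates fatty acids, fell in dabigatran against sham by 0.69 ± 0.17 (limma, adjusted p = 0.0212), and in dabigatran against rivaroxaban Acsl1 and Cpt1a fell, by 0.94 ± 0.19 and 1.02 ± 0.21. Of the 6 tested shuttle genes, Got1, the cytosolic aspartate aminotransferase, fell in dabigatran against sham by 0.44 ± 0.12 (limma, adjusted p = 0.0335). Of the 9 calcium uniporter and exchanger genes, Letm1 and Mcur1 fell in dabigatran against sham by 0.37 ± 0.11 and 0.36 ± 0.11, and Mcub, an inhibitory subunit of the uniporter, rose in dabigatran against untreated by 1.69 ± 0.34 (limma, adjusted p = 0.0105). None of the 8 permeability transition and energy transfer genes was called in dabigatran against sham (limma).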

How the data were processed

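PolyA RNA of heart tissue was analysed in 11 libraries of 5 groups. The authors deposited 1 table of log2 CPM, scaled by TMM (trimmed mean of M values), per the file headers and its name. The tools were edgeR, STAR, Trim Galore, FastQC and bcl2fastq, with build mm10, per the submitters' processing notes. How reads were counted, with which annotation, strand setting and filter, is not given in the sources used here. The reads behind the log2 values were recovered by taking off the lowest value, and all values under 2000 reads came out whole to within 0.05 of a read (100% in every library).

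Groups came from the labels. Genes with at least 0 log2 CPM in at least 3 libraries were tested by two-sided limma-trend (limma 3.58.1, R 4.3.3) in 1 fit of the 5 group means, with Benjamini-Hochberg adjustment over 13541 genes and a threshold of 0.05. All groups share 1 estimate of the spread, so errors against the untreated pair, the most spread, run small. Paralog pairs were tested by exact permutation (Python 3.11.15). Both procedures were tested on simulated data. The members, lists and comparisons were chosen with earlier results of these data known. Named in full were the called members with the 6 smallest p per direction of a comparison, the 6 members of highest mean, both members of each pair, and up to 3 called genes per other list. Slc25a10, Slc25a22, Slc25a27, Slc25a28, Slc25a38, Slc25a40 and others outside that rule are given by values because every member is accounted for. Positions and exon lengths came from GENCODE M21 (GRCm38), which matched all 42 members. Exons of 7 members overlap a listed gene on the opposite strand (Slc25a10, Slc25a11, Slc25a18, Slc25a25, Slc25a26, Slc25a35 and Slc25a46), so their values are uncertain while the strand setting is not known, as are reads shared by near-identical paralogs. Values of 1 called member are not reported here. Promoters are those of RefSeq on GRCm38.p6. Alternatives tried were no filter, log2(CPM + 1), median centring, quantile normalization, the compared groups alone, weights per library, voom on recovered reads, and each library left out.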

Additional observations from a re-analysis of the deposited data

How the results depend on the processing

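Of the single-member calls, 57 in all, 336 of 387 values under the other settings stayed on the same side of the threshold, 51 no longer passed and 0 reversed. With 1 library left out, 465 of 627 stayed, 162 no longer passed and 0 reversed. A lone library left in a group was assumed to vary like the other groups.

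Counts of members called changed as follows, and the cause was not tested. The shares of all genes called under the same settings are not given here, so these counts are not read as a result about the family. With weights per library (0.242 for each untreated library) they were 0 in untreated against sham, 1 in rivaroxaban against sham, 9 in aPC against sham, 0 in rivaroxaban against untreated, 1 in dabigatran against untreated, 1 in aPC against untreated and 21 over the 5 groups. With the compared groups alone in the fit they were 1 in untreated against sham, 2 in aPC against sham, 0 in rivaroxaban against untreated, 1 in dabigatran against untreated and 0 in aPC against untreated. The voom fit gave 2 in aPC against untreated. Dabigatran against untreated gave 8 (1 higher, 7 lower) with median centring, which moved the median of all genes by -0.11, and 7 (2 higher, 5 lower) with quantile normalization. With quantile normalization aPC against untreated gave 4 higher and 2 lower, and dabigatran against rivaroxaban 3 higher and 9 lower. The small family medians of untreated against sham and rivaroxaban against untreated changed sign with quantile normalization, to -0.03 and 0.05.

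With each library left out in turn the counts ran from 1 to 14 in untreated against sham, 0 to 0 in rivaroxaban against sham, 2 to 12 in dabigatran against sham, 0 to 3 in aPC against sham, 0 to 12 in rivaroxaban against untreated, 2 to 18 in dabigatran against untreated, 1 to 11 in aPC against untreated, 3 to 12 in dabigatran against rivaroxaban, 5 to 17 in aPC against dabigatran and 6 to 27 over the 5 groups. The highest counts came without untreated 17, tied with untreated 19 in contrasts that hold no untreated library. The lowest came without Dabi-202 in dabigatran against sham, untreated 19 in dabigatran against untreated, aPC-792 in aPC against untreated and against dabigatran, Riva-313 in rivaroxaban against untreated, Riva-313 or Dabi-202 in dabigatran against rivaroxaban, and either rivaroxaban library over the 5 groups. The exact p of the paralog balance ran from 0.000794 to 0.00529 for Slc25a4 minus Slc25a5, 0.00397 to 0.0593 for Slc25a23 minus Slc25a24, 0.00317 to 0.320 for Slc25a37 minus Slc25a28, 0.0176 to 0.392 for Slc25a22 minus Slc25a18 and 0.193 to 0.651 for Slc25a12 minus Slc25a13. No paired analysis was possible because no replicate number is shared between groups. With 2 or 3 libraries per group, a missing call does not show that levels were equal. The counts with a library left out have no share of all genes beside them, and they too are not read as a result about the family.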

Other observations

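Several low-level members differed between libraries of 1 group more than between most groups, and are given as values. In the untreated pair, 5 members differed by more than 1 log2 unit. Slc25a33, a pyrimidine nucleotide carrier, was 3.63 log2 CPM in untreated 17 and 5.68 in untreated 19, and the 9 other libraries lay between 3.55 and 4.29. Slc25a17, a peroxisomal carrier, was 4.87 and 3.51, against 4.40 to 4.81 elsewhere. Slc25a27 was 4.03 and 2.71, Slc25a45 was 2.45 and 0.79, and Slc25a18 was 1.17 and 3.79. Untreated 19 was thus outside the range of all other libraries for Slc25a17, Slc25a18, Slc25a33 and Slc25a45. In the dabigatran pair 2 members did so: Slc25a27, at 2.35 in Dabi-202 and 3.49 in Dabi-204, and Slc25a35, a carrier with no settled substrate, at 1.60 and 2.73. No tested member differed by more than 1 within sham, rivaroxaban or aPC.

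Genes of energy transfer and of the outer membrane gave further calls in the added contrast of aPC with dabigatran, which was chosen after the values had been seen. The muscle creatine kinases Ckm and Ckmt2 were higher in aPC by 0.83 ± 0.17 (SE; limma, adjusted p = 0.00759) and 0.78 ± 0.16 (adjusted p = 0.00846). The outer membrane channel Vdac1 was higher by 0.71 ± 0.14 (limma, adjusted p = 0.00653), at 10.34 and 10.27 log2 CPM in aPC and 9.68 and 9.51 in dabigatran, with the other libraries between 9.83 and 10.13. The sideroflexin Sfxn5 was lower in aPC by -1.78 ± 0.19 (limma, adjusted p = 0.00095), at 3.27 and 3.09 in aPC, 4.90 and 5.01 in dabigatran and 3.78 to 4.55 elsewhere. The levels of Sfxn5 in aPC and in dabigatran were the lowest and the highest of the 5 groups.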
